A study of Homo sapiens with 12 samples.

Results

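Ribosome biogenesis and nucleolar protein mRNAs were examined in RNA bound by tagged RPL12 and in the 80S ribosome fractions it was taken from. The group was defined by a list of 40 Ensembl gene identifiers for nucleolar ribosome assembly factors, and the defining rule names NCL, NPM1, NOLC1, TCOF1, GNL2, GNL3, BRIX1, LTV1, BMS1 and TSR1 among them and leaves out UTP3. Of the 40, 39 had a row among the 57820 genes of the count tables and 1 was not analysed here. All 39 passed the filter on low counts, as did 16920 genes in all. The tables give identifiers without symbols, and the sources used here do not pair them, so no identifier below is given a gene name or a role. Assignment of the members to assembly steps, to proteins or to sequences was not possible for the same reason.

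Ribosomes are assembled in the nucleolus, where ribosomal RNA is transcribed, cleaved and chemically modified while ribosomal proteins are added. Nucleolin (NCL) and nucleophosmin (NPM1) are abundant nucleolar proteins that bind RNA and histones. NOLC1 and TCOF1 are long, highly charged nucleolar phosphoproteins, and TCOF1 (treacle) takes part in transcription of ribosomal DNA. BMS1, TSR1 and LTV1 act in assembly of the small subunit. GNL2, GNL3 and BRIX1 act in the nucleolus, GNL2 and BRIX1 in assembly of the large subunit. These proteins are made in the cytoplasm, and what was measured here is the mRNA of each on 80S ribosomes.

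The 12 libraries came from HEK293 Flp-In T-Rex cells, a human embryonic kidney line. RPL12, also named uL11, belongs to the large ribosomal subunit. Each of the 3 lines carried a stable FLAG/HA-tagged form of it: wild type (WT), S38A or S38D. The mutant forms have alanine at the serine site, which takes no phosphate, or aspartate, which is often used to imitate a phosphate. The labels describe expansion of monoclonal colonies after hygromycin selection, and all lines overexpressed a tagged protein. For each line, 2 pooled 80S fractions were taken from sucrose gradients with cycloheximide present. Part of each fraction gave an input library without antibody, and the rest gave a library from anti-FLAG immunoprecipitation (IP). The 6 groups thus held 2 libraries each. An IP from cells without tagged RPL12 was not analysed here, so RNA bound without the tag and recovery through RPL12 cannot be told apart. Form and cell line, which may be a single clone, cannot be told apart either. Separate cultures are not stated for the fractions of a line, and p-values therefore reflect the scatter of these particular libraries, some or all of which may be technical. Markers of HEK293 and other cell types, RPL12 and the 125 other ribosome biogenesis genes listed by symbol were not analysed here, because symbols could not be matched.

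Input libraries held 7434431 to 8723130 gene counts and IP libraries 3186164 to 7430881. The first WT IP library was the shallowest. The lowest count of any member in any library was 23. ERCC spike-in RNA made up 0.306% ± 0.127 of all counts in the inputs and 3.43% ± 1.65 in the IP libraries (SD, n = 6 each). In bulk libraries, a smaller part of the cells with an mRNA and less mRNA per cell cannot be told apart.

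The first comparison asked whether these mRNAs were recovered with tagged RPL12 in proportion to their presence in the 80S input. The members were mostly higher in the IP. Over the 3 lines 27 of 39 rose and 0 fell (edgeR quasi-likelihood test, Benjamini-Hochberg adjusted p under 0.05), against 15.9% of all 16920 genes higher and 15.9% lower. The median log2 change was 0.54 for the members, a fold of 1.46, and -0.04 for all genes. With total counts in place of TMM scaling, 22 members were higher, against 7.67% of all genes, and 5 lower, against 31%. The median of all genes moved to -0.25 and that of the members to 0.32. With the 80S fraction, which IP and input libraries share, as a replicate block, 31 members rose and 2 fell, against 22.5% of all genes higher and 24% lower.

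The members differed in size of change. The 27 that rose spanned log2 changes of 0.29 to 1.29, which is 1.22-fold to 2.44-fold, with a median of 0.68. Of these, 18 rose at least 1.5-fold, against 7.18% of all genes, and 6 at least 2-fold, against 1.92%. The 12 that did not pass spanned -0.37 to 0.35, and 5 of them had a negative value. The lower quartile, median and upper quartile of the 39 lay at 0.27, 0.54 and 0.76. The spread between members, with an SD of 0.42, was larger than the median standard error of a single member's change, 0.12. The same held over all genes tested, with an SD of 0.50 and a median standard error of 0.15.

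The member with the highest change was ENSG00000135521.8. Its inputs stood at 56.3 and 69.7 CPM (counts scaled to library size, with TMM factors) in the WT pair, 65.0 and 63.5 in the S38A pair, and 60.7 and 79.2 in the S38D pair. Its IP libraries stood at 304 and 127 CPM for WT, 116 and 95.7 for S38A, then 161 and 204 for S38D. All 6 IP values lay above all 6 inputs, with the first WT IP library the highest. The change was 1.29 on the log2 scale (SE 0.18, edgeR adjusted p = 0.00040), and 135 of the 16920 genes had a higher one.

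ENSG00000115053.11 followed. Its inputs lay close together, at 345 and 404 CPM for WT, 363 and 363 for S38A, then 354 and 357 for S38D. Its IP libraries stood at 1598 and 719 CPM for WT, 618 and 530 for S38A, then 885 and 990 for S38D. The groups did not overlap, and the IP values were spread over a wider range than the inputs. The change was 1.23 on the log2 scale (SE 0.16, edgeR adjusted p = 0.00032).

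The member with the most counts had inputs of 740 and 961 CPM for WT, 787 and 537 for S38A, then 670 and 708 for S38D. Its IP libraries gave 1677 and 1347, 1058 and 705, then 1212 and 1437 CPM in that order. The second S38A IP library lay within the range of the inputs, and the other IP values lay above it. Its log2 change was 0.73 (SE 0.14, edgeR adjusted p = 0.0025).

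At the other end, ENSG00000119285.6 and ENSG00000120800.4 had the lowest values and did not pass. ENSG00000119285.6 stood at 57.7 and 71.3 CPM in WT input, 79.0 and 114 in S38A input, and 80.3 and 51.1 in S38D input. Its IP libraries gave 38.01 and 48.5, 71.7 and 92.9, and 68.2 and 35.8 CPM in the same order. IP was below input within each of the 6 fractions, while the IP and input ranges overlapped. Its log2 change was -0.37 (SE 0.18, edgeR adjusted p = 0.12). With the fraction as a replicate block it passed as lower (-0.39, adjusted p = 0.0014), and also with total counts (-0.58, adjusted p = 0.025), with no filter (-0.41, adjusted p = 0.0067) and without the first S38D IP library (-0.56, adjusted p = 0.030). ENSG00000120800.4 stood at 11.8 to 19.7 CPM in the inputs, median 15.8, and at 8.74 to 17.7 in the IP libraries, median 14.0. Its log2 change was -0.25 (SE 0.13, edgeR adjusted p = 0.17), and with total counts it passed as lower (-0.46, adjusted p = 0.018).

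The direction was shared by the fractions. In 28 members IP was above input in 6 of 6 fractions, against 20.3% of all genes, and in 3 it was below in 6 of 6, against 23.4%. In 22 members all 6 IP libraries lay above all 6 inputs, against 6.15% of all genes, and 0 members showed the opposite order, against 6.86%. All 22 were among the 27 that rose, and both counts use the same libraries. By fraction, between 31 and 34 of the 39 members were higher in IP, against 45.4% to 50.1% of all genes. The median member stood at 1.10 and 0.39 on the log2 scale for the WT fractions, 0.31 and 0.39 for S38A, then 0.53 and 0.62 for S38D. Without the first WT fraction 27 members still rose, 26 of them among the 27 above, against 13.1% of all genes higher and 12.7% lower, and the median was 0.45. The medians of all genes lay between -0.07 and 0.00 in the 6 fractions.

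**Figure D1:**
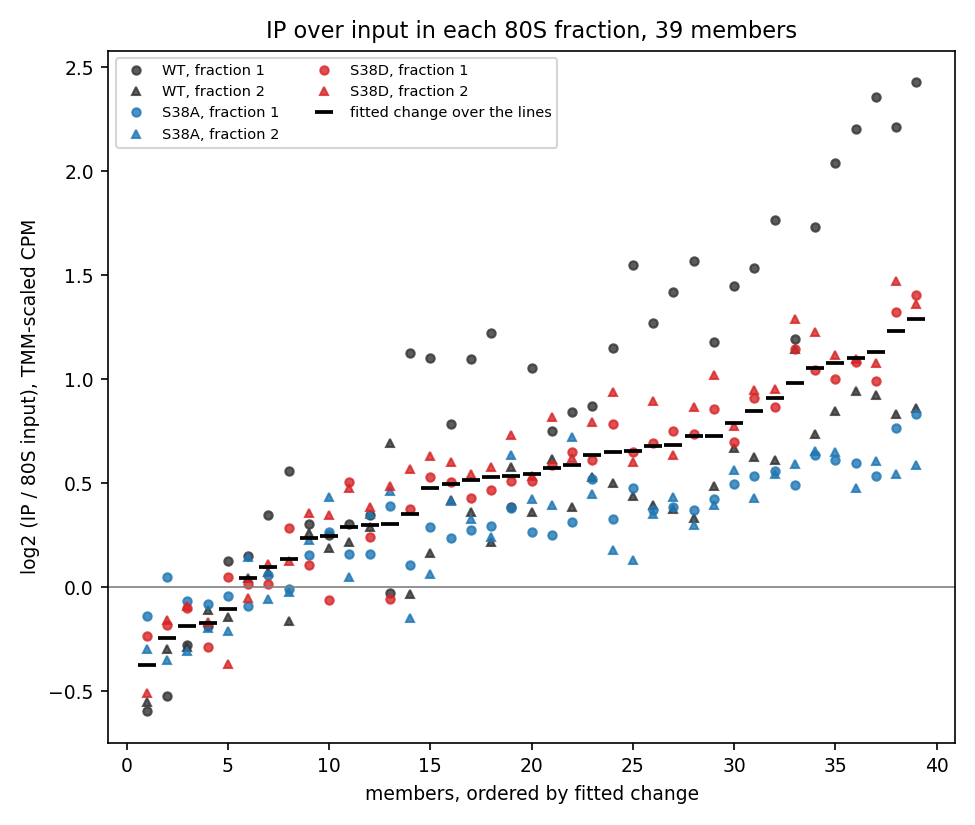
Log2 ratio of IP to 80S input in each of the 6 fractions (y axis, from TMM-scaled CPM with a prior count of 2) for the 39 members, ordered along the x axis by the fitted change over the 3 lines (black bars). Most points lie above 0, and the first WT fraction is the highest of the 6 in 27 members. The share of all genes with that order is not given here.

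Most members gave many reads, and genes with more reads tended to be higher in IP in this series. Of the 39 members, 30 fell in the highest quartile of log2 CPM averaged over the libraries, 8 in the next and 1 in the one below. In the highest quartile 25 of the 30 members rose, with a median log2 change of 0.61, against 37.1% of the 4230 genes there and a median of 0.17. In the next quartile 2 of the 8 rose, with a median of 0.14, against 14.4% of genes and a median of -0.05. Across the 39 members the change correlated with log2 mean CPM at Pearson's r = 0.49 and Spearman's rho = 0.46. This is a description across genes, which share libraries and are not independent replicates, and CPM is not adjusted for transcript length.

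As a share of the library, members took 0.558% to 0.607% of gene counts in the 6 inputs and 0.678% to 1.03% in the 6 IP libraries. Inputs were at 0.558% and 0.587% for WT, 0.581% and 0.564% for S38A, then 0.572% and 0.607% for S38D. IP libraries were at 1.03% and 0.727% for WT, 0.688% and 0.678% for S38A, then 0.778% and 0.878% for S38D. The IP share exceeded the input share in every fraction. The exact Clopper-Pearson 95% interval of the first WT IP library was 1.02% to 1.04%, which covers counting error only. The 3 members with the most counts held 24.2% to 37.7% of the members' counts in the libraries. Without them the share was 0.397% to 0.445% in inputs and 0.473% to 0.642% in IP libraries, so the ranges still did not overlap.

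The 6 IP libraries had the same order by member share, by spike-in share and, reversed, by gene counts. From the lowest member share to the highest they were the second and first S38A libraries, the second WT library, the first and second S38D libraries and the first WT library. Their spike-in shares were 1.44%, 2.15%, 2.57%, 3.79%, 5.18% and 5.43%, and their gene counts 7430881, 6150315, 5048911, 4390785, 3695441 and 3186164. The part of depth and spike-in share in the member values was not tested. In that order of libraries, the median change of the members was 0.39, 0.31, 0.39, 0.53, 0.62 and 1.10. That of the genes in the highest abundance quartile was 0.13, 0.13, 0.10, 0.17, 0.20 and 0.22.

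**Figure D2:**
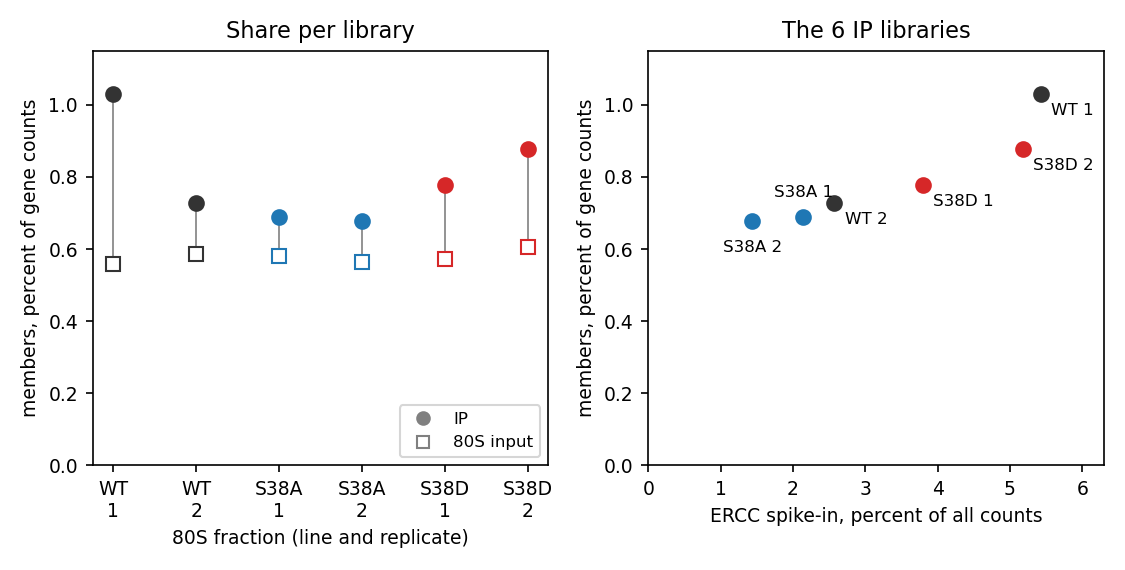
Left, summed counts of the 39 members as a percentage of gene counts (y axis) in the IP (filled) and input (open) library of each 80S fraction (x axis). Right, the same percentage against the ERCC spike-in percentage in the 6 IP libraries, which rise together from the second S38A library (0.678% and 1.44%) to the first WT library (1.03% and 5.43%).

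Each line was then taken alone. In WT, 20 of 39 members rose and 0 fell (edgeR adjusted p under 0.05), against 5.77% of all genes higher and 5.48% lower, with a median log2 change of 0.71 against -0.04. ENSG00000165733.7 had the highest change in WT. It stood at 75.5 and 80.7 CPM in WT input and at 387 and 153 in WT IP, so its IP replicates lay far apart. Its log2 change was 1.78 (SE 0.31, edgeR adjusted p = 0.0079), and ENSG00000135521.8 rose by 1.77 (SE 0.32, adjusted p = 0.0088). The count of calls in WT changed with single libraries. It was 1, against 0.348% of all genes, when the first WT input was left out, 0 when the second was, and 9, all higher, when the first WT IP library was, against 1.32% of all genes higher and 0.646% lower. Both genes named lost their call when either input was left out. With the fraction as a replicate block 25 rose, against 14% of all genes, and 1 fell, against 14.5%. When the whole first fraction was left out, WT kept 1 input and 1 IP library, so calls in WT there rest on no spread within WT. Without that fraction and with no block ENSG00000165733.7 was at 0.93 and ENSG00000135521.8 at 0.86, and the median member at 0.39 against -0.05 for all genes.

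In S38D, 10 members rose and 0 fell, against 4.87% of all genes in either direction, 3.13% higher and 1.74% lower, and the median was 0.63 against -0.05. ENSG00000115053.11 rose by 1.40 on the log2 scale (SE 0.28, edgeR adjusted p = 0.026) and ENSG00000135521.8 by 1.38 (SE 0.31, adjusted p = 0.032). With the fraction as a replicate block, 24 members rose, against 10.7% of all genes, and 30, against 19.2%, with 1 lower, when the first WT fraction was left out as well. With 1 library left out the count was 0 for each of the 4 S38D libraries, where both genes named lost their call, 5 for each WT input, against 1.5% and 1.46% of all genes, and 6 for each S38A IP library, against 2.05% and 2.35%. It was 22 for each WT IP library, against 6.18% and 6.58% of all genes. The other lines enter through the shared estimate of spread. All 10 members that rose in S38D had also risen in WT, and these lists come from 1 fit. The matching overlap over all genes is not given here, so this overlap is not read as a trait of the members.

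In S38A, 0 members passed, as did 0 of all genes (edgeR), and 10 members had an unadjusted p under 0.05, all higher, against 7.39% of all genes. That count fell without either S38A input or the first S38A IP library, and rose without either WT IP library. Omission of a library also changes the shared spread for all genes. DESeq2 called 0 members and 446 of the 33516 genes it was run on. With the fraction as a replicate block 5 rose, against 5.92% of all genes, and 28, against 18.6%, with 1 lower, when the first WT fraction was left out as well. The median member was at 0.34 against 0.00. ENSG00000135521.8 was again the highest, at 0.72 (SE 0.31, edgeR adjusted p = 0.30), followed by ENSG00000115053.11 at 0.66 (SE 0.28, adjusted p = 0.29). Of the 20 members that rose in WT, 20 had a positive value in S38A. Over all genes tested, called in WT or not, 50.1% did, which is not a like share. The share among all genes that rose in WT is not given here. Changes in WT and S38A correlated over all genes (Pearson's r = 0.62).

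The order of the members was similar in the lines, which share no libraries. Across the 39, changes in WT and S38D correlated at Pearson's r = 0.95, WT and S38A at 0.87, and S38A and S38D at 0.89. Across all 16920 genes the values were 0.66, 0.62 and 0.62. Members are not independent replicates, and these are descriptions. The values for all genes were not matched to the members for abundance.

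**Figure D3:**
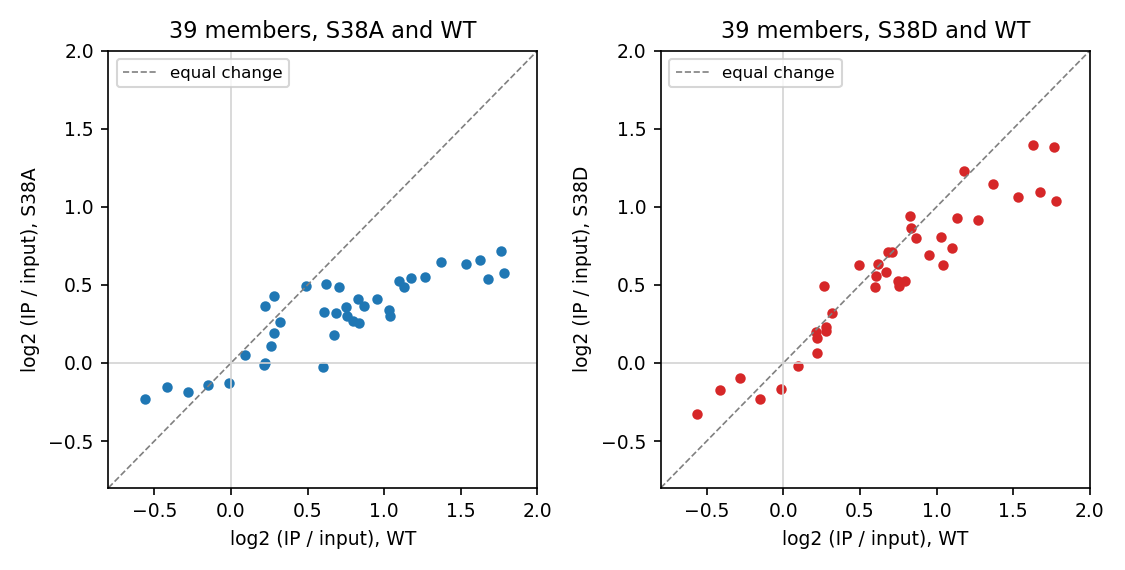
Fitted log2 change of IP over 80S input for the 39 members in WT (x axes) against S38A (left) and S38D (right), with the line of equal change dashed. Pearson's r is 0.87 for S38A and 0.95 for S38D. Below the line lie 33 of 39 points for S38A, against 43.7% of all genes, and 28 of 39 for S38D, against 47.7%.

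Whether recovery differed between the forms was tested with interaction contrasts. The S38A IP libraries were also the deepest, at 6150315 and 7430881 gene counts, with the lowest spike-in shares. Form and depth cannot be told apart in the contrasts with S38A. For S38A against WT, 33 of 39 members had a lower value in S38A, against 43.7% of all genes. Their median difference was -0.42 on the log2 scale against 0.05 for all genes. None of the 39 passed, and 0 of all genes did (edgeR and DESeq2). At unadjusted p under 0.05 there were 8 members, all lower in S38A, against 1.69% of all genes lower. That count changed with single libraries, in fits that leave 1 library in a group and change the shared spread for all genes. It rose when the second WT IP library was omitted, and fell when the first WT IP library or the first WT fraction was. It also fell without the first WT input, either S38A input or the second S38A IP library. ENSG00000165733.7 had the lowest difference, at -1.21 (SE 0.42, edgeR adjusted p = 1.00), followed by ENSG00000115816.9 at -1.14 (SE 0.38, adjusted p = 1.00). The latter stood at 387 and 176 CPM in WT IP against 148 and 131 in S38A IP, with inputs of 83.7 and 91.5 against 97.9 and 94.2. These differences moved with 1 library. Without the first WT IP library they were -0.45 and -0.52, and without the second they were -1.73 and -1.60, where 11 members passed as lower in S38A against 1.64% of all genes. The median difference was -0.17 without the first WT IP library and -0.06 without the first WT fraction. ENSG00000165733.7 also passed with no filter on low counts (-1.17, edgeR adjusted p = 0.028).

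For S38D against WT the median difference was -0.08, with 28 of 39 lower in S38D, against 47.7% of all genes. None passed in edgeR or DESeq2, and 0 were at unadjusted p under 0.05, against 0.792% of all genes. Some came under it when the second WT IP library was omitted, which leaves 1 library in that group. The median changed sign, to 0.10 without the first WT IP library and 0.19 without the first WT fraction. For S38D against S38A it was 0.26, with 32 of 39 higher in S38D, against 46.8% of all genes. None passed in either tool, and 2 were at unadjusted p under 0.05, against 0.242% of all genes higher. That count fell without the second S38D IP library and rose without either WT IP library. With a replicate block and without the first WT fraction, 14 members passed as higher in S38D, against 2.1% of all genes. In 26 members both S38D fractions lay above both S38A fractions, against 20.6% of all genes. These 3 contrasts share libraries by pairs. The median standard error of a member's difference was 0.30 on the log2 scale in each contrast. With the replicate block on all 12 libraries 0 members passed in each.

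The inputs were compared to see whether the mRNAs themselves differed on 80S ribosomes between lines. None of the 39 passed in any of the 3 comparisons (edgeR), against 0% of all genes for S38A against WT and 0.00598% in each of the others. Median differences were 0.05 for S38A against WT, 0.09 for S38D against WT and 0.01 for S38D against S38A. For all genes they were -0.02, -0.01 and 0.00. Positive differences were found in 22, 33 and 21 of the 39 members, against 48%, 48.9% and 50.2% of all genes. Most members thus stood slightly higher in S38D input than in WT input. Scaled to the spike-in they were -0.34, -0.71 and -0.39, where all genes stood at -0.44, -0.83 and -0.40, and 0 members passed. The WT inputs held 0.116% and 0.484% spike-in, so the scaled differences from WT rest on replicates that disagree in that share. At unadjusted p under 0.05 there were 8, 3 and 2 members, against 15.3%, 3.32% and 3.77% of all genes. These counts changed with 1 library omitted, in fits that leave 1 library in a group. For S38A against WT the count was lowest without the second S38A input and highest without the first. For S38D against WT it was lowest without the second WT or second S38D input. For S38D against S38A it was lowest without the second input of any line. For S38A against WT, ENSG00000105202.3 had the lowest difference and ENSG00000119285.6 the highest. ENSG00000105202.3 stood at 528 and 585 CPM in WT input, 423 and 289 in S38A input and 473 and 484 in S38D input, a log2 difference of -0.62 (SE 0.19, edgeR adjusted p = 0.20) between S38A and WT. It passed with DESeq2 (-0.62, adjusted p = 0.024), with no filter (-0.62, edgeR adjusted p = 0.0033) and without the first S38A input (-0.93, edgeR adjusted p = 0.032), and without the second it was at -0.37 (adjusted p = 0.74). ENSG00000119285.6 was at 0.61 (SE 0.24, edgeR adjusted p = 0.28) and passed with no filter (0.61, adjusted p = 0.016), while it was 0.32 without the second S38A input and 0.85 without the first, neither of which passed.

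Replicates of a group lay closer for members than for genes at large in the inputs. For the members the median absolute log2 difference between replicates was 0.15 for WT inputs, 0.10 for S38A inputs and 0.13 for S38D inputs, and for all genes 0.21, 0.24 and 0.20. In the IP libraries it was 0.14 in S38A and 0.20 in S38D for the members, against 0.26 and 0.27. WT IP had the opposite order, with 0.55 for the members against 0.38 for all genes. Most members lay in the highest abundance quartile, and all genes were not matched to them for abundance. No test was made of these spreads.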

How the data were processed

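The deposited files hold raw counts of reads per gene and per ERCC sequence, a table for each library. The submitters' processing notes name bcl2fastq 2.16.0.10, STAR 2.4.2a, DESeq2 and hg19. How reads were counted (strand, multiple mapping, gene annotation) could not be learned from the labels or files, so genes that overlap, lie antisense or have close copies carry uncertain counts.

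Members were rows whose identifier before the dot was listed. The reference table of 59792 genes held 0 Ensembl identifiers, so roles and lists set by symbol were not used. Members, lists and tests were chosen with earlier results of these data known. The rule for named genes asked, in each of 4 role groups, for the member with the most counts and the 2 highest and 2 lowest changes over the 3 lines, and for members passing between lines. Without roles it was applied to the 39 together. The extreme members of the other comparisons, and the added alternatives, were picked after their values were seen.

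The fits were made with edgeR 4.0.16 under R 4.3.3, using filterByExpr (minimum count 10), TMM, glmQLFit, glmQLFTest and Benjamini-Hochberg adjustment over all genes tested. IP comparisons used all 12 libraries (biological coefficient of variation 17.4%), and input comparisons the 6 inputs (16728 genes, 15.7%). ERCC counts were set aside, except for spike-in scaling of inputs. SE is the log2 change over the square root of F. A prior count of 2 went into log2 CPM.

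Input and IP libraries sharing a number are of 1 fraction, per the labels. Deviations of these pairs from the group means correlated at 0.28 (WT), 0.64 (S38A) and 0.54 (S38D), so the numbers were taken to pair the libraries. In the same measure, first inputs of different lines correlated at -0.07 (WT and S38A), 0.22 (WT and S38D) and 0.11 (S38A and S38D). The value for WT and S38D is near that of the WT pair. Whether a number marks anything shared between lines could not be learned from these values. No replicate pair agreed within sampling noise (chi-square per degree of freedom 5.74 to 17.4).

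The settings varied were the size factors (RLE, total counts, spike-in), the filter, the tool (DESeq2 1.42.0), the replicate block, the libraries in the fit and omission of each library. Omission of the first WT fraction was added after seeing the data. In simulated counts with known 2-fold changes, recovery was 96% over the 3 lines (16855 genes), 49% in WT (16845), 15% between S38A and WT for IP over input (16848) and 52% between S38A and WT inputs (16573).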

Additional observations from a re-analysis of the deposited data

Results flagged for a closer look

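The IP over input ratio of 1 member, ENSG00000163811.7, was on opposite sides of 0 in S38A and S38D. It was at -0.01 and -0.02 on the log2 scale in the S38A fractions and 0.28 and 0.12 in the S38D fractions, a difference of means of -0.22. The fitted difference between S38D and S38A did not pass (0.22, SE 0.25, edgeR adjusted p = 1.00).

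ERCC spike-in RNA, used only to rescale inputs in 1 alternative, made up a mean of 3.43% of counts in the IP libraries against 0.306% in the inputs. The labels give a spike-in step for input RNA and no amount for IP RNA.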

How the results depend on the processing

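Omission of 1 library at a time gave 25 to 28 called members over the 3 lines (main count 27, median change 0.49 to 0.64), 0 to 25 in WT (main 20), 0 to 22 in S38D (main 10), 0 to 11 for S38A versus WT (main 0) and 0 to 2 between S38A and WT inputs (main 0). Each of these fits left 1 library in a group. In the IP comparisons the number of all genes called also changed with the library omitted. These ranges are therefore not read as a trait of the members. The replicate block gave 33 over the 3 lines, 31 higher and 2 lower, among 7860 of 16920 genes called, and they include the 27. It gave 24 higher in S38D (10.7% of all genes higher) and 5 higher in S38A (5.92%, main 0). Between inputs, where the block was the replicate number taken across lines and not the fraction, 0 were called. Omission of the first WT fraction gave 0 in WT and 22 higher in S38D (5.46%). Joined with the block it gave 31 in S38D, 29 in S38A, 1 higher for S38D versus WT (0.0804%, main 0) and 14 higher for S38D versus S38A (2.1%, main 0). That joined fit left WT with 1 input and 1 IP library. In S38D and S38A it called more of all genes than the block alone, both higher and lower. Fits on the 4 libraries of a line gave 0 in WT and 24 higher in S38D (7.15%). No filter gave 18 higher in S38D (2.8%), 2 higher in S38A (0.701%), 1 lower for S38A versus WT (39 of 33516 genes lower) and 4 between S38A and WT inputs (924 of 30566 genes). DESeq2 gave 21 higher in S38D (3.4%) and 1 between S38A and WT inputs (398 of 30566 genes), and total counts 6 higher in S38D (1.43%). The cause was not tested. Single members' values crossed the threshold upward in 17 cases, downward in 16 and not in 227, and 0 called values changed sign. At this depth 15% of simulated 2-fold differences between S38A and WT in IP over input were recovered.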
